A study of Homo sapiens with 6 samples.

Results

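The insulin and insulin-like growth factor (IGF) axis was represented here by 10 of the 19977 genes in the count tables. They were taken by name, with earlier results of these data known. They are the ligand IGF2, the receptors INSR, IGF1R and IGF2R, the adaptor IRS2 and the binding proteins IGFBP2, IGFBP3, IGFBP4, IGFBP5 and IGFBP6. RNA came from NCRM-1 cells, a wild type human induced pluripotent stem cell (hiPSC) line, grown for 4 days as aggregates in suspension in vertical wheel bioreactors. One bioreactor held E8, a defined medium whose protein components include insulin, and gave the 3 Control libraries. The other held E8 with polyethylene glycol (PEG) at 10 mg/ml and Heparin sodium salt (HS) at 0.1 µg/ml, and gave the 3 PEG and HS libraries. In both, 50% of the medium was replaced on day 2. The labels describe one vessel for each medium, so the vessel and the medium cannot be told apart, and the p-values measure only the spread between these libraries, which may be technical. The treatment note repeats the additives for every sample, and the treatment field, which names Control and PEG and HS, was followed. The comparison asks what the additives changed relative to E8 alone.

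Insulin and IGF2 signal through receptor tyrosine kinases. INSR and IGF1R pass the signal to adaptors such as IRS2, which recruit PI3-kinase and so activate AKT and mTORC1, a route that supports survival and growth of human pluripotent cells. IGF2R, the cation-independent mannose 6-phosphate receptor, lacks a kinase, clears IGF2 from the surface and carries lysosomal enzymes. The IGFBPs are secreted proteins that hold IGFs away from receptors or store them near cells, bind insulin only weakly, and are cut by proteases such as PAPPA. IGFBP3 and IGFBP5 also carry basic stretches that bind heparin. Only transcripts were measured here, not proteins.

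The upstream sequences of the genes with the clearest differences are shown so that their base composition can be compared. RefSeq promoters (GRCh38.p14) matched 9 of the 10 genes, and the 250 bases before the start are given 5′ to 3′ on the strand of the gene, with capitals for the letters TATAAA or GGGCGG on either strand. The windows lie at chr7:45921273-45921522 (minus strand), chr2:216695550-216695799 (minus strand), chr19:7294415-7294664 (minus strand) and chr17:40443200-40443449 (plus strand). The first 3 belong to genes that were lower in PEG and HS and the last to the gene that was higher.
IGFBP3: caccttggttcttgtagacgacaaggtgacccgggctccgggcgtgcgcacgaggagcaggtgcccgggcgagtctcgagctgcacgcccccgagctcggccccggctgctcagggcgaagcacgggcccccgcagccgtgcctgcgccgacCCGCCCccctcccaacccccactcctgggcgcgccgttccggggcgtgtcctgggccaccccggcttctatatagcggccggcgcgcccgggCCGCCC
IGFBP5: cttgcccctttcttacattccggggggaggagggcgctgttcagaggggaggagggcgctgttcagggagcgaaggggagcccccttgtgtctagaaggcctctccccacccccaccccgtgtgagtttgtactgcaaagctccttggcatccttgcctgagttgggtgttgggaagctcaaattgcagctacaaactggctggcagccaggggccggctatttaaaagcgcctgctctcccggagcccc
INSR: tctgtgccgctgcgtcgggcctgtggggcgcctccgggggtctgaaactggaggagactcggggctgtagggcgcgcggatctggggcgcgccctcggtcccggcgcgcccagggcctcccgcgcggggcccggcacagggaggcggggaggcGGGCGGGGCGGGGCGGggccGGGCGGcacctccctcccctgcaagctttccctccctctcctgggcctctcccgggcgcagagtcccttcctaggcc
IGFBP4: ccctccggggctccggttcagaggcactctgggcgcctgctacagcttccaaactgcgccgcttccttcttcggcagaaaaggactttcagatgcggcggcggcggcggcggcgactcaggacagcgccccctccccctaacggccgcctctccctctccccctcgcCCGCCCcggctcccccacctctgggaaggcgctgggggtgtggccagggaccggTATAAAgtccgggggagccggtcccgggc

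The INSR window had 4 GGGCGG matches and a GC content of 78.4%, and the IGFBP3 window had 2 and 76%. IGFBP4 had 1 GGGCGG match and a TATAAA that began 29 bases before the start, with a GC content of 71.6%. IGFBP5 held neither motif and had a GC content of 61.2%, near the median of 58% over 35116 RefSeq windows. GGGCGG, the core of the GC box bound by SP factors, occurred in 42.6% of those windows, and TATAAA, a common form of the TATA box, in 10.7%. Other forms of the TATA box were not searched for, so a window without TATAAA may still hold such a form. TGTTTAC, the core bound by FOXO factors, occurred in 2.98% of windows and, among the 9 matched genes, in that of IGFBP6 alone. Among windows not shown, those of IGF2R and IGF1R, not called below, had 6 and 2 GGGCGG matches. Their GC contents were 79.2% and 81.2%. The window of IRS2, called lower, had 5 matches and a GC content of 76.4%. IGFBP6 had 1 match and 61.2%, and the windows of IGFBP2 had 0 or 1 and 56.4% to 69.2%. The IGFBP3 window lies within the GENCODE span of the gene, chr7:45912245-45921874. The antisense transcript DIRC3-AS1, which overlaps exons of IGFBP5, was not analysed here. These matches describe letters and were not tested against expression.

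All 10 genes passed the filter of 10 counts over the 6 libraries, and single libraries held between 81 and 12094 counts of each. Libraries held 26991279 to 36185138 counts, with scaling factors of 0.994 to 1.006. PEG and HS replicate 3 had the lowest mitochondrial share, 4.54% against 5 to 5.16% in the others, and the lowest share of counts in its 10 top genes, 5.77% against 6.07 to 6.32%. Without it the same 5 genes described below were called. Levels are given as CPM, the counts of a gene scaled to a common library size with TMM factors, and differences as log2 fold changes of PEG and HS over Control from edgeR's quasi-likelihood test, called at an adjusted p under 0.05. By that call 5 of the 10 differed, 1 higher and 4 lower. Over all 16505 genes tested 25.3% were called, 12.2% higher and 13.1% lower. For 7 of the 10 genes every library of one medium lay on the same side of the other medium's, beside 39.3% of all genes tested. Among the 11738 genes within the same range of CPM, 30.4% were called and 44.5% did not overlap. The median log2 fold change was −0.11 over the 10 genes and 0.0031 over all genes tested, and the median absolute values were 0.19 and 0.12. Gene positions below are those of GENCODE 44 on GRCh38. In bulk RNA, fewer cells of a kind and less RNA per cell cannot be told apart.

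**Figure D1:**
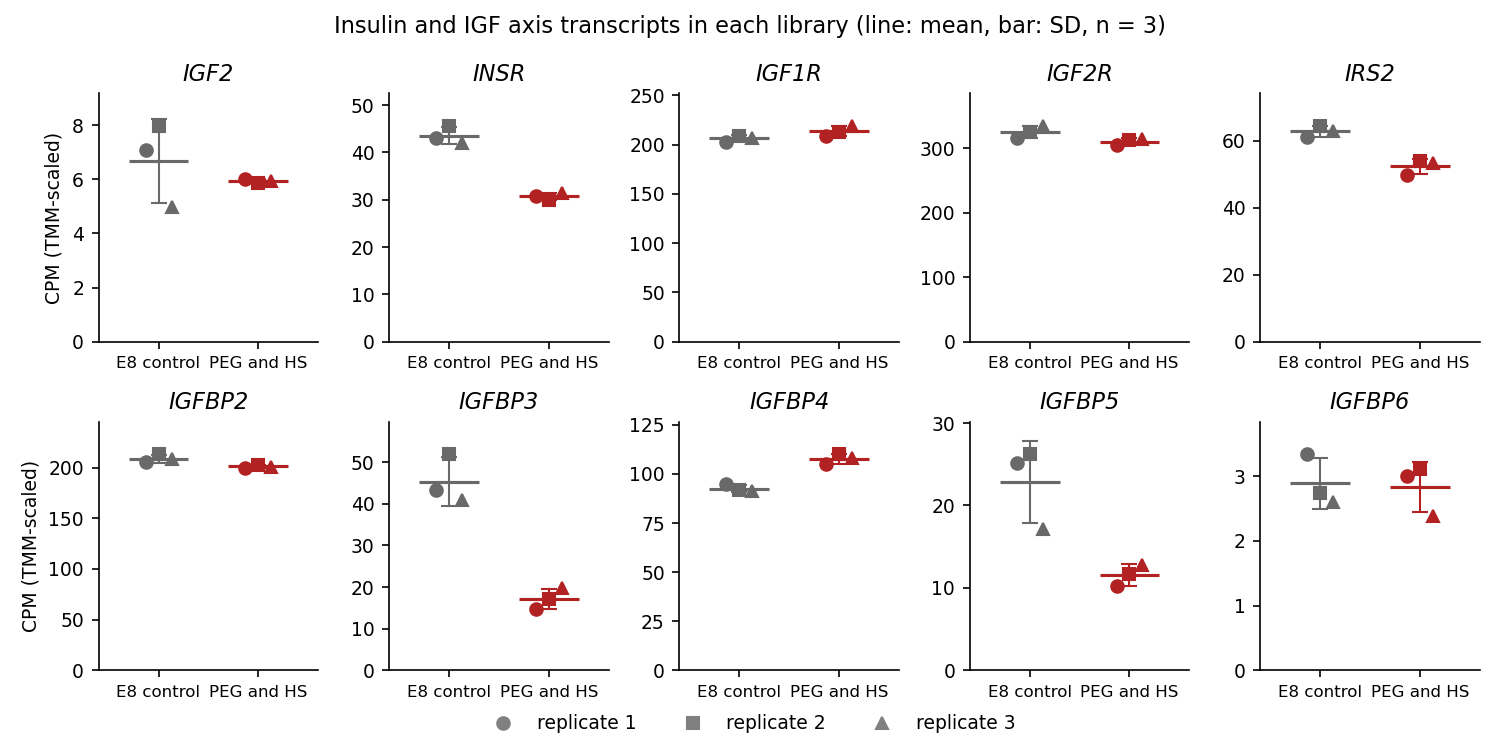
CPM after TMM scaling (vertical axes, each from 0) for each of the 10 genes in the 3 E8 Control and the 3 PEG and HS libraries; points are libraries, horizontal lines means and bars SD. The 2 sets of points do not meet for 7 genes, and the widest relative gap is that of IGFBP3, at 14.8 to 19.7 CPM against 40.9 to 51.9.

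The ligand IGF2 (ENSG00000167244, chr11:2129112-2158391, minus strand), the fetal IGF, was scarce. It was at 5.99, 5.87 and 5.94 CPM with PEG and HS, against 7.08, 7.97 and 4.96 CPM in Control, so the libraries overlapped and the wide spread lay in Control. The log2 fold change was −0.16 (SE 0.136, 95% interval −0.45 to 0.13, edgeR adjusted p = 0.445). The value turned on single libraries, since without Control replicate 3 it was −0.35 (edgeR adjusted p = 0.0222) and without Control replicate 2 it was −0.003. Of the 31-base stretches of IGF2 exons, 41.2% also occur in another gene, most often in ENSG00000284779, which held 8 counts in all, and the read-through gene INS-IGF2 held 0. The treatment of multi-mapping reads is not given, so reads from shared stretches may have been left out and IGF2 undercounted. The antisense genes IGF2-AS, at IGF2, and ENSG00000275741, at IRS2, overlap exons and were not analysed here. The other ligands of these receptors were near absent, with 14 counts of INS and 6 of IGF1 over the 6 libraries.

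INSR (ENSG00000171105, chr19:7112255-7294414, minus strand), the insulin receptor, fell. It was at 30.8, 29.9 and 31.4 CPM with PEG and HS, against 43, 45.6 and 42 CPM in Control, 2 tight sets with a clear gap. The means were 30.7 ± 0.789 and 43.54 ± 1.89 CPM (SD, n = 3 each), a 1.417-fold lower level. The log2 fold change was −0.50 (SE 0.0454, 95% interval −0.60 to −0.41, edgeR adjusted p = 7.59e-07).

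Its close relative IGF1R (ENSG00000140443, chr15:98648539-98964530, plus strand), the main receptor for IGFs, was at 209, 213 and 219 CPM with PEG and HS, against 203, 209 and 207 CPM in Control. The libraries overlapped, and the log2 fold change of 0.05 (SE 0.028, edgeR adjusted p = 0.216) had a 95% interval of −0.0093 to 0.11. The ratio of IGF1R to INSR levels per length was 5.41 ± 0.132 in PEG and HS and 3.68 ± 0.13 in Control (SD, n = 3 each). The 3 ratios in PEG and HS, 5.28, 5.54 and 5.41, all lay above those in Control, 3.67, 3.56 and 3.82 (exact two-sided permutation test, p = 0.1, the smallest that 3 against 3 can give). The sum of the 2 receptors per length was 71.84 ± 1.87 and 72.9 ± 0.983 (SD, n = 3 each, exact two-sided permutation test, p = 0.5), since IGF1R made up most of it.

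IGF2R (ENSG00000197081, chr6:159969082-160113507, plus strand), the clearance receptor, had the highest CPM of the 10. It was at 305, 313 and 314 CPM with PEG and HS, against 316, 326 and 335 CPM in Control. Every Control library lay above every PEG and HS library, but the gap was narrow and was not called (log2 fold change −0.07, SE 0.0283, 95% interval −0.13 to −0.007, edgeR adjusted p = 0.0982).

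IRS2 (ENSG00000185950, chr13:109752695-109786583, minus strand), an adaptor that couples both kinase receptors to PI3-kinase, fell. It was at 49.8, 53.9 and 53.5 CPM with PEG and HS, against 61.2, 64.5 and 62.9 CPM in Control, without overlap. The log2 fold change was −0.26 (SE 0.0396, 95% interval −0.35 to −0.18, edgeR adjusted p = 0.000144), a 1.201-fold lower level.

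IGFBP3 (ENSG00000146674, chr7:45912245-45921874, minus strand), the main carrier of IGFs in serum, fell most of the 10 genes. It was at 14.8, 17 and 19.7 CPM with PEG and HS, against 43.3, 51.9 and 40.9 CPM in Control. The highest PEG and HS library was far below the lowest Control library. The means were 17.18 ± 2.49 and 45.33 ± 5.78 CPM (SD, n = 3 each), a 2.637-fold lower level with a log2 fold change of −1.40 (SE 0.0951, 95% interval −1.60 to −1.20, edgeR adjusted p = 2.89e-08). It was the only one of the 10 whose difference was called against a minimum change of 1.5-fold (edgeR adjusted p = 5.31e-06 in that test). The genes whose log2 CPM followed it most closely over the 6 libraries were TYRO3, ERC1 and NLGN3, with Pearson r of 0.9989, 0.9988 and 0.9987. Of 10068 genes with a mean of at least 10 CPM, 665 had an r over 0.95, and all share these 6 libraries and their 2 media.

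IGFBP5 (ENSG00000115461, chr2:216672105-216695549, minus strand), a binding protein that adheres to the extracellular matrix, fell as well. It was at 10.2, 11.7 and 12.8 CPM with PEG and HS, against 25.1, 26.2 and 17.1 CPM in Control, where replicate 3 lay below the other two. Without that library the log2 fold change was −1.15, and with it −0.97 (SE 0.131, 95% interval −1.25 to −0.69, edgeR adjusted p = 5.21e-05), a 1.957-fold lower level. Against the 1.5-fold minimum the adjusted p was 0.0681 in edgeR. IGFBP5 lies tail to tail with IGFBP2 on chromosome 2, with 7668 bases between their ends.

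IGFBP2 (ENSG00000115457, chr2:216632828-216664436, plus strand), among the most abundant of the axis, was at 200, 203 and 201 CPM with PEG and HS, against 205, 213 and 208 CPM in Control. The sets did not overlap, but the log2 fold change of −0.05 (SE 0.0269, 95% interval −0.11 to 0.0049) was not called (edgeR adjusted p = 0.179).

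IGFBP4 (ENSG00000141753, chr17:40443450-40457725, plus strand), a binding protein cut by PAPPA, was the one that rose. It was at 105, 110 and 108 CPM with PEG and HS, against 94.7, 91.6 and 91.4 CPM in Control, without overlap. The means were 107.9 ± 2.38 and 92.57 ± 1.88 CPM (SD, n = 3 each), a 1.166-fold higher level with a log2 fold change of 0.22 (SE 0.0314, 95% interval 0.15 to 0.29, edgeR adjusted p = 8.23e-05).

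IGFBP6 (ENSG00000167779, chr12:53097436-53102345, plus strand), which prefers IGF2 over IGF1, was the scarcest in CPM. It was at 3, 3.11 and 2.39 CPM with PEG and HS, against 3.34, 2.74 and 2.6 CPM in Control, and the libraries overlapped. The log2 fold change was −0.03 (SE 0.155, edgeR adjusted p = 0.931), with the widest standard error of the 10.

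**Figure D2:**
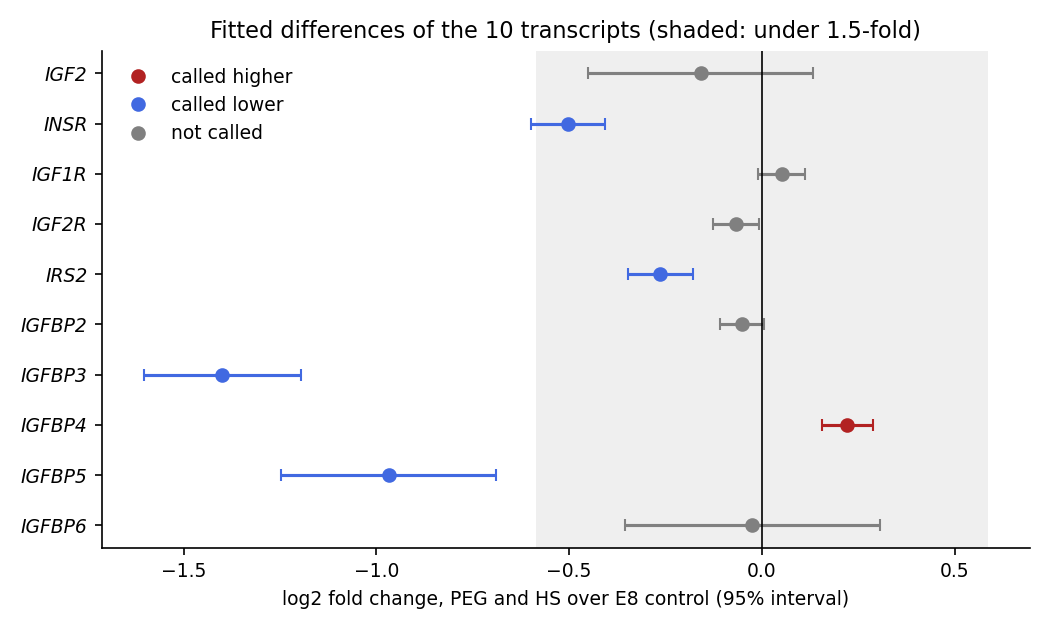
Fitted log2 fold change of PEG and HS over E8 Control (horizontal axis) with its 95% interval for each of the 10 genes, coloured by the edgeR call; the shaded band marks changes under 1.5-fold. IGFBP3 and IGFBP5 have intervals outside the band, that of INSR (−0.60 to −0.41) crosses its edge, and those of IRS2 and IGFBP4 lie inside it.

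To compare genes with one another, levels were taken per kilobase of merged exons and scaled to the same total in every library. In Control the order of these levels per length was IGFBP2 (171), IGFBP4 (163), IGF1R (57.3), IGF2R (55.8), IGFBP3 (38.4), IRS2 (29.9), INSR (15.6), IGFBP5 (13.6), IGFBP6 (8.33) and IGF2 (3.61). In 2 places neighbours in that order overlapped between libraries, IGF1R with IGF2R and INSR with IGFBP5. In PEG and HS the order was IGFBP4 (194), IGFBP2 (168), IGF1R (60.6), IGF2R (54.4), IRS2 (25.4), IGFBP3 (14.9), INSR (11.2), IGFBP6 (8.33), IGFBP5 (7.08) and IGF2 (3.29), and only IGFBP6 and IGFBP5 overlapped. IGFBP4 and IGFBP2 thus exchanged the first place, and IGFBP3 passed below IRS2. The ratio of IGFBP2 to IGFBP4 was 0.869 ± 0.0128 in PEG and HS and 1.05 ± 0.0378 in Control (SD, n = 3 each, exact two-sided permutation test, p = 0.1, the smallest possible). With the length of the longest transcript instead, IGF2R stood above IGF1R in both media, and IGFBP3 stood above IRS2 also in PEG and HS, though there the 2 overlapped. Whether the last place of IGF2 owes to reads lost from its shared stretches was not tested.

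**Figure D3:**
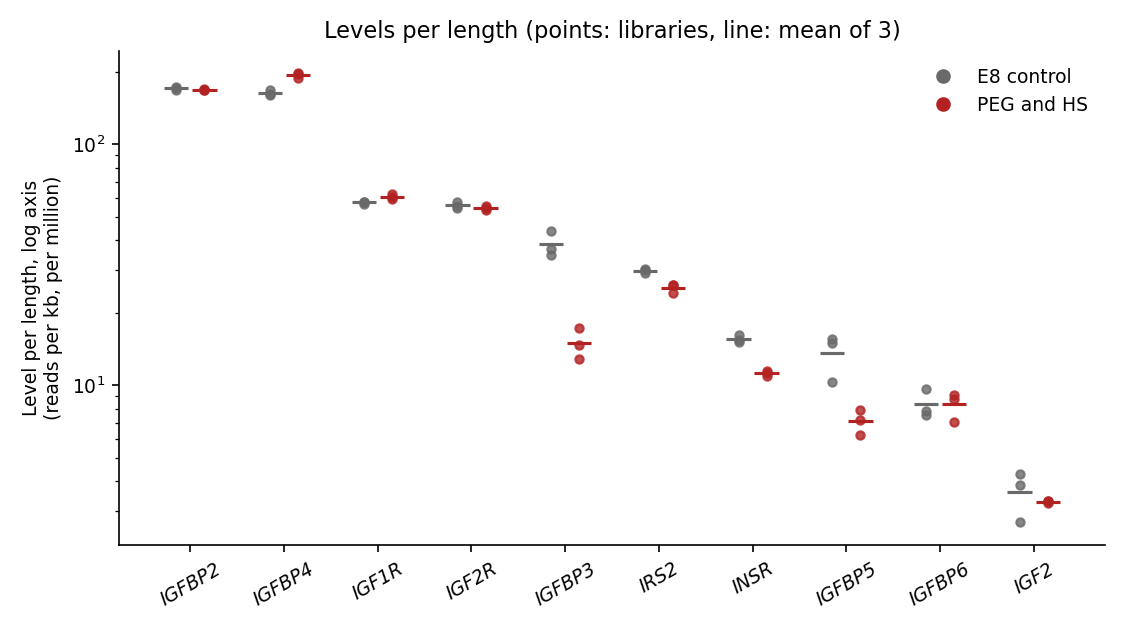
Level per length (reads per kilobase of merged exons, scaled to the same total in every library, log axis) of the 10 genes, ordered by their Control mean; points are libraries and lines means of 3. IGFBP2 and IGFBP4 stand above the rest at 163 to 194, and IGFBP3 moves from 38.4 in Control to 14.9 in PEG and HS.

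Summed over IGFBP2 to IGFBP6, the level per length was 391.9 ± 7.51 in PEG and HS and 393.7 ± 7.52 in Control (SD, n = 3 each, exact two-sided permutation test, p = 0.6). The libraries were at 383, 397 and 395 against 396, 400 and 385, so they overlapped on this scale. The sum depended on the scale, with a log2 ratio of −0.0068 per merged exons, −0.0688 per longest transcript and −0.1274 in CPM. On the other scales the libraries did not overlap and the PEG and HS sums were the lower ones, at 306.4 ± 5.97 against 321.4 ± 7.64 per longest transcript and 341 ± 6.42 against 372.5 ± 12.5 in CPM (SD, n = 3 each, exact two-sided permutation test, p = 0.1 for each, the smallest possible). IGFBP2 made up 42.89% ± 0.516 of the sum in PEG and HS and 43.36% ± 1 in Control per merged exons (SD, n = 3 each). That direction reversed per longest transcript, at 43.33% and 42.03%, and in CPM, at 59.1% and 56.11%.

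The other genes of the axis were described by lists. Of 18 tested ligands, receptors and adaptors beyond the 10 genes, 3 rose and 3 fell (33.3%, beside 25.3% of all genes), with a median log2 fold change of −0.02. ENPP1, a membrane enzyme that inhibits INSR, rose from 32.64 ± 1.3 to 45.87 ± 2.18 CPM (SD, n = 3 each, edgeR log2 fold change 0.49, SE 0.0472, adjusted p = 1.49e-06), a direction opposite to that of INSR itself. SHC1, an adaptor that leads to the MAP kinases, rose by a log2 fold change of 0.26, and IRS4, an adaptor related to IRS2, fell by 0.33. IRS1, another relative of IRS2, was not called, at 51.31 ± 1.31 CPM with PEG and HS and 52.73 ± 1.28 CPM in Control (SD, n = 3 each). Its log2 fold change was −0.04 (SE 0.0376, edgeR adjusted p = 0.51).

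Other binding proteins, proteases and IGF2 mRNA-binding proteins showed 2 higher and 7 lower of 13 tested (69.2%, beside 25.3% of all genes). The median log2 fold change was −0.23. PAPPA, the protease that frees IGFs from IGFBP4, was the largest, falling from 4.638 ± 0.995 to 1.421 ± 0.149 CPM (SD, n = 3 each, edgeR log2 fold change −1.69, SE 0.177, adjusted p = 3.88e-06). Its libraries were at 1.57, 1.27 and 1.42 CPM with PEG and HS, against 5.67, 4.56 and 3.69 CPM in Control. IGFBP4 and PAPPA therefore moved in opposite directions, while IGFBP3 and IGFBP5 fell as PAPPA did. Of the stanniocalcins, secreted inhibitors of PAPPA, STC1 fell (log2 fold change −0.62) and STC2 rose (0.18). IGFBP7, a distant relative of the IGFBPs, fell by 0.62 on the log2 scale, and ADAM12, another IGFBP protease, by 0.76. Of the IGF2 mRNA-binding proteins, IGF2BP1 rose by 0.10, IGF2BP3 fell by 0.20, and IGF2BP2 was not called (log2 fold change −0.01, SE 0.0303, edgeR adjusted p = 0.807). IGFBP1 and IGFALS, which are made mainly by liver, had 2 and 7 counts in all and were not tested.

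In the PI3K, AKT and mTORC1 chain 4 of 34 tested genes rose and 6 fell, with a median of −0.01. The share called was 29.4%, near the 25.3% of all genes. PIK3R1, a regulatory subunit of PI3-kinase, rose by a log2 fold change of 0.32, and INPP5D, a phosphatase that acts on its product, rose by 0.20. DEPTOR, an inhibitor of mTOR, fell by 0.78 on the log2 scale from a low level of 4.175 ± 0.458 CPM (SD, n = 3), and FOXO4 fell by 0.34. With 1 library left out in turn, between 5 and 9 of the 34 were called, with 5 without PEG and HS replicate 3 or Control replicate 2 and 6 without PEG and HS replicate 1 or Control replicate 3.

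FOXO factors are kept out of the nucleus by AKT, and genes described as their targets form the next list. Of 20 tested, 2 rose and 10 fell (60%, beside 25.3% of all genes), with a median of −0.22. CITED2, a transcriptional co-regulator, was at 39.9, 42.5 and 39.6 CPM with PEG and HS, against 98.1, 99.9 and 98.5 CPM in Control, with a log2 fold change of −1.28 (SE 0.0356, edgeR adjusted p = 1.39e-12). SESN3, a stress-response gene that restrains mTORC1, was at 52.8, 55.6 and 55.4 CPM against 120, 121 and 129 CPM, with a log2 fold change of −1.18 (SE 0.037, edgeR adjusted p = 4.67e-12). Its relative SESN1 rose by 0.20 and the mitophagy gene BNIP3 by 0.13. Many other factors act on these genes, so the list is no measure of FOXO activity.

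IGF2R carries mannose 6-phosphate-tagged enzymes to lysosomes. Of 25 genes of that route 13 fell and 0 rose (52%, beside 25.3% of all genes), with a median of −0.12. GNPTAB, a subunit of the enzyme that makes the tag, fell by 0.59 on the log2 scale, and the protease CTSB by 0.32. The remaining called genes fell by less than CTSB. Around IGF2 on chromosome 11, 2 of 11 tested neighbours fell (18.2%, beside 25.3% of all genes) and 0 rose. These were CDKN1C, an imprinted inhibitor of the cell cycle, at −0.62, and MRPL23, a mitochondrial ribosomal gene, at −0.24.

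**Figure D4:**
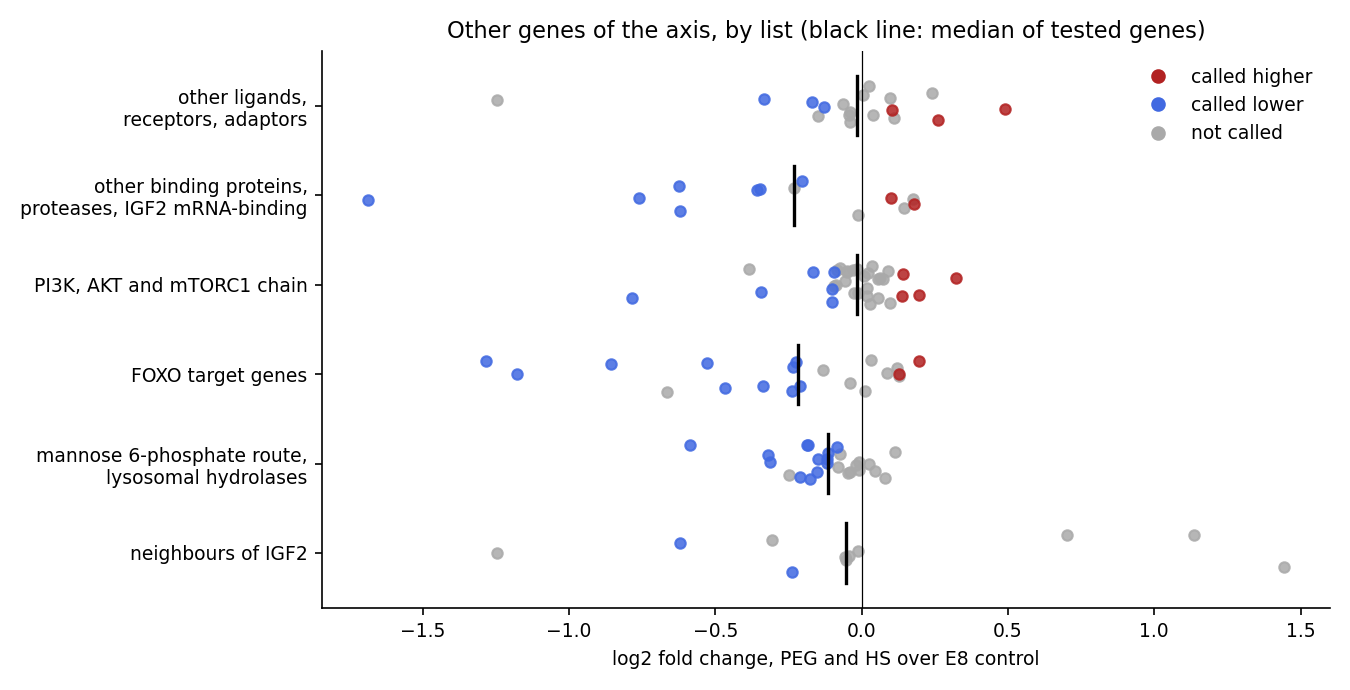
Log2 fold change of PEG and HS over E8 Control (horizontal axis) for each tested gene of the 6 lists of other pathway genes, coloured by the edgeR call, with the median of each list as a black line; vertical scatter within a list has no meaning. The medians of the binding protein and protease list (−0.23) and of the FOXO target list (−0.22) lie lowest, and the PI3K chain centres on −0.01.

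Markers of cell states also moved between the media. Their counts stand beside 12.2% of all tested genes called higher and 13.1% called lower. Genes of pluripotent cells were abundant in every library, with a summed level of 9340 to 9610 CPM in PEG and HS and 9660 to 9850 CPM in Control, and 4 of 10 rose and 4 fell. Of 10 neuroectoderm markers 7 fell and 0 rose, with sums of 560 to 599 CPM against 753 to 780 CPM. IGFBP3 and IGFBP5 are often abundant in mesenchyme. Of 10 mesenchyme and neural crest markers, 5 fell and 1 (THY1, also made by pluripotent cells) rose. Their sum was 471 to 505 CPM against 392 to 424 CPM, but without THY1 it was 73.8, 82.6 and 78.2 CPM against 154, 158 and 136 CPM. Within it COL1A1 was at 57.4, 63.3 and 59.5 CPM against 120, 126 and 115 CPM, and DCN at 1.57, 1.77 and 2.16 CPM against 4.3, 4.25 and 1.88 CPM. Apart from SOX10, all genes of this marker list, DCN and COL3A1 included, had their lowest Control value in replicate 3. SOX10 had its highest there, at 3.56, 3.26 and 3.8 CPM in Control. IGF2, INSR, IGFBP3, IGFBP4, IGFBP5, IGFBP6 and PAPPA also had their lowest Control value in replicate 3. IGF1R, IGF2R, IGFBP2 and IRS2 had theirs in replicate 1. Of 8 tested trophectoderm and amnion markers 3 fell, with sums of 7 to 7.36 CPM against 15.2 to 16.2 CPM and CGA at 0. Of 9 tested mesoderm markers 1 rose and 4 fell, with sums of 63.9 to 67.5 CPM against 59 to 63 CPM and MSGN1 at 0. KDR, the one that rose, carried that sum, and without it the sums were 6.08, 5.95 and 6 CPM against 7.6, 7.94 and 8.7 CPM. None of 7 tested endoderm markers was called in edgeR, with sums of 4.95 to 5.58 CPM against 6.35 to 8.08 CPM. The part of these shifts in the fall of IGFBP3, IGFBP5 and the other genes was not tested.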

How the data were processed

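mRNA was sequenced from 6 libraries, 3 per medium, prepared with a stranded mRNA kit. Per the labels and the study's methods, the authors ran the nf-core/rnaseq pipeline, in which reads were trimmed with Trim Galore (0.6.7), aligned to GRCh38 with STAR (2.6.1), and deposited whole-number counts per gene. The counting tool, strand setting, treatment of multi-mapping reads and annotation release are not given in the sources used here, so reads shared with antisense or near-identical genes may be assigned in ways that cannot be seen. Of 19977 gene identifiers, 19916 matched GENCODE 44, from which names, positions and exon lengths were taken. Genes with at least 10 counts over the 6 libraries were kept. Counts were tested with edgeR 4.0.16 (TMM, quasi-likelihood, Benjamini-Hochberg over 16505 genes) in R 4.3.3, after a test on simulated data. DESeq2 1.42.0 and limma-voom (3.58.1), other scalings and filters, a 1.5-fold minimum, a replicate block and each library left out were alternatives. Ratios and sums used exact permutation tests. The 10 genes and the lists were chosen with earlier results of these data known. From each list of pathway genes, the 2 called genes with the largest and the 2 with the smallest log2 fold change were named, if every library of the medium with more of it had 1 CPM or more, plus genes needed to read the 10. IRS1, IGFBP7, STC1, IGF2BP2 and IGF2BP3 were chosen after their values were seen. So were the marker genes COL1A1, COL3A1, DCN, SOX10, THY1, KDR and NES, and the sums without THY1 or KDR. SOD2 and H19 were not matched by name and were not analysed here. Of the genes chosen by the rule for list genes, 1 is not reported here.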

Additional observations from a re-analysis of the deposited data

How the results depend on the processing

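The 5 calls among the 10 genes kept their direction and significance in 14 of 15 alternatives each for INSR, IRS2, IGFBP4 and IGFBP5, and in 15 for IGFBP3. The exception was the edgeR test against a 1.5-fold change, under which 1 of the 10 genes was called (0 higher, 1 lower, IGFBP3) and 264 genes in all (30 higher, 234 lower). IGF2 was called in 1 of 16 alternatives, without Control replicate 3 (log2 fold change −0.3462, edgeR adjusted p = 0.0222). With a library left out, calls in the PI3K chain ranged from 5 to 9. The log2 ratio of summed IGFBP2 to IGFBP6 moved from −0.0068 to −0.0688 per longest transcript and −0.1274 in CPM, and that of the IGFBP2 share from −0.0156 to 0.0439 and 0.0749, and so turned direction. Over the libraries left out, these ran from −0.0231 to 0.0085 and from −0.03 to 0.0034. Levels per longest transcript moved 7 of 20 ranks. Other scalings shifted the median of all genes to at most 0.0121. The cause of these moves beyond the change of scale, threshold or library was not tested.

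No pairing of libraries by replicate number was seen, as the deviations of same-numbered libraries correlated at 0.0052, 0.0137 and 0.00392. These correlations run over all genes tested, where counting noise can hold them near 0, so they cannot show that no pairing existed. A fit with the replicate block called 4444 genes in place of 4173 and the same number of the 10 genes, 5. The 95% intervals of IGFBP6 and IGF2, the 2 genes with the lowest CPM, were the widest of the genes that were not called, and the part of depth in this was not tested.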
